A study of Drosophila melanogaster with 18 samples.

Results

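The comparison described here asks how the transcriptome of whole Drosophila melanogaster larvae differs when RNAi against Xrp1 is added to RNAi against NAT10. Its libraries are the input RNA of an ac4C immunoprecipitation experiment, that is, the fragmented polyadenylated RNA kept aside before antibody capture. The larvae with both constructs were Dats-GAL4 > UAS-NAT10-RNAi Xrp1-RNAi, with 3 input libraries, and those with NAT10 RNAi alone were Dats-GAL4 > UAS-NAT10-RNAi, also with 3. A further 3 input libraries came from larvae with the driver alone (Dats-GAL4/+), called control, and are given for orientation. The comparison thus uses 6 of the 18 libraries of the series, and the 9 input libraries entered 1 fit. Members are the genes with at least 1 FPKM (fragments per kilobase of gene, scaled to the mapped fragments of the library) in at least 3 of the 9 input libraries, which held for 11557 of 12301 genes.

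All 3 genotypes carried the da-GAL4 driver, which is active in most tissues, with a temperature-sensitive tub-GAL80 that blocks it at low temperature. Eggs were laid over 24 h at 18 °C, larvae were moved to 30 °C in the first instar, and 40 third-instar larvae made up a sample. The labels name no second construct in the larvae with NAT10 RNAi alone that would match the number of UAS constructs in the others. Control larvae were taken at 72 h and NAT10 knockdown larvae at 120 h, and the labels give no separate time for larvae with both constructs. Whether the larvae compared here were of the same age or stage was not tested. Since the RNA came from whole larvae, fewer cells of a type and less RNA per cell cannot be told apart.

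Xrp1 encodes a transcription factor of the bZIP class that pairs with Irbp18, a protein of the C/EBP family. In flies it is induced when ribosomes or translation are impaired and it is required for the slow growth and elimination of cells that are heterozygous for a ribosomal protein gene. NAT10, named l(1)G0020 in the fly annotation, is the acetyltransferase that places N4-acetylcytidine (ac4C) on ribosomal, transfer and some messenger RNAs.

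Input libraries held 15518179 to 21848490 reads in genes with both constructs, 17076581 to 24272099 with NAT10 RNAi alone and 17291110 to 19223499 in control. Replicates differed by more than sampling noise, with a chi-square per degree of freedom of 3.3 to 11.65 with both constructs, 1.41 to 1.85 with NAT10 RNAi alone and 1.86 to 3.95 in control. Replicate 1 with both constructs stood apart, at 8.15 and 11.65 against the other two. The 20 most abundant genes took 19.0% to 20.3% of the reads with both constructs, 15.9% with NAT10 RNAi alone and 19.3% to 19.5% in control. The median of all genes tested was shifted by -0.16 on the log2 scale between the RNAi genotypes. The design text of the series names 3 biological replicates per genotype. Nothing in the labels says that they came from separate cultures, so p-values measure the spread between these samples, part of which may be technical. Named genes that share 300 bases of exon or more with another annotated gene, so that reads of the pair may be mixed, are AGO2 (CG7739), CR43908 and CG15741 (with each other), Dark (CR44390), Diap1 (CR45889), Ets21C (nAChRbeta3), Gcn2 (PNPase), Hsp22 (CG4456), Jheh1 (CR46485), Jheh2 (CR46485), Jheh3 (CR46485), Kr-h1 (CG45075), Lgr3 (CR45225), Lsp2 (CR11538), Myc (CG12535), Pomp (vari), crc (CG46314), elav (enrr), ftz-f1 (CR45939), p53 (CR46089), roX1 (ec) and srp (CR44133). Counts of genes are given on the FPKM as deposited and again after each library was divided by the median ratio of its values to the mean library (rescaled), which brings that median to 0.00.

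Xrp1 transcripts were much lower with both constructs. The gene (FBgn0261113, BDGP6 3R:18914968-18926849, plus strand) stood at 40.4, 40.9 and 43.9 FPKM with both constructs, against 385, 386 and 385 FPKM with NAT10 RNAi alone. In control it stood at 208, 211 and 214 FPKM. The 3 groups did not overlap, and the libraries with both constructs were the lowest of the 9. The difference between the RNAi genotypes was -3.18 ± 0.036 on the log2(FPKM + 1) scale (SE; limma, Benjamini-Hochberg adjusted p = 1.57e-12), a level 9.24-fold higher with NAT10 RNAi alone. Its partner gene Irbp18 (FBgn0036126, 3L:11097446-11098186, minus strand) stood at 14.6, 17.4 and 19.7 FPKM with both constructs and at 28.7, 27.3 and 25.4 FPKM with NAT10 RNAi alone. It fell by 0.63 on the log2 scale (limma adjusted p = 0.000119; -0.45 rescaled), and it shares 95 bases of exon with CG33947 on the opposite strand. slbo, which encodes another bZIP factor of the C/EBP family and was chosen after its values were seen, stood at 15.1, 16.6 and 16.2 FPKM with both constructs, 1.22, 1.24 and 1.29 FPKM with NAT10 RNAi alone and 16.5, 16.4 and 17.2 FPKM in control, a log2 difference of 2.92 between the RNAi genotypes.

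On FPKM as deposited, the transcript level of the NAT10 gene itself was not reduced in either RNAi genotype, against what their labels name. l(1)G0020 (FBgn0027330, X:8716713-8720277, minus strand) stood at 6.18, 6.04 and 6.02 FPKM with both constructs, at 5.22, 5.93 and 5.76 FPKM with NAT10 RNAi alone and at 5.13, 4.97 and 5.46 FPKM in control. As deposited, no library labelled as NAT10 RNAi was below the lowest control library. This may depend on the scale, since the factors that divide the values on rescaling were 1.09 to 1.10 with NAT10 RNAi alone. In control they were 0.94 to 0.96, and the level against control was not compared after rescaling. Between the RNAi genotypes the difference was 0.10 ± 0.06 (log2, SE; limma adjusted p = 0.193), and 0.26 after rescaling (limma adjusted p = 0.00535). On the opposite strand CG1785 overlaps 234 exon bases of the gene, and the strand setting of the counting is not given in the sources used here. Groups are named below by their labels, and a direction given for an RNAi genotype is that of the libraries so labelled.

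A large part of the transcriptome differed between larvae with both constructs and larvae with NAT10 RNAi alone, mostly by less than 2-fold. Of the 11557 genes tested 7094 (61.4%) differed between the RNAi genotypes (limma, adjusted p under 0.05), 1761 higher with both constructs (15.2%) and 5333 lower (46.1%). After rescaling 3256 were higher (28.2%) and 3185 lower (27.6%), so that 50.6% of calls were higher, against 24.8% as deposited. The counts of every gene list below are to be read beside these shares. All 1761 genes called higher as deposited were also called higher after rescaling, and 3 genes changed from lower to higher. At least 2-fold differences were found for 512 genes, 185 higher and 327 lower (265 and 234 rescaled). Each gene said below to have risen or fallen passed this test, and values in parentheses after a gene are its log2 differences, both constructs minus NAT10 RNAi alone, as deposited (SE 0.029 to 0.20 over the named genes). The libraries of the RNAi genotypes did not overlap for any of these 512 genes, and for 6923 of the 7094 called genes. Both sets were selected by the test, so this is no separate result. Of the 512, 289 carry only a CG or CR symbol and 99 belong to one of the gene lists used below.

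**Figure D1:**
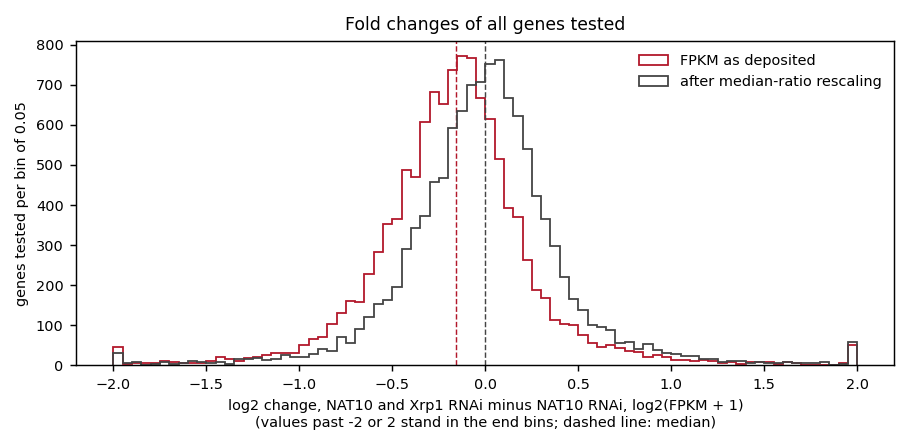
Number of genes tested per bin of 0.05 by their log2 change between larvae with both constructs and larvae with NAT10 RNAi alone, on FPKM as deposited (red) and after median-ratio rescaling (grey). The red distribution is centred at -0.16 and the grey one at 0.00, and most genes lie between -1 and 1.

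The largest rises with both constructs were mostly in genes with few FPKM with NAT10 RNAi alone. CG32071 (3L:11103421-11103873, minus strand) stood at 165, 176 and 194 FPKM with both constructs and at 3.36, 3.27 and 2.199 FPKM with NAT10 RNAi alone, a log2 difference of 5.52. Sgs1, a gene of the salivary glue that fixes the pupa to its substrate, stood at 80.1, 80.2 and 87.7 FPKM with both constructs, at 0.933, 0.959 and 0.995 FPKM with NAT10 RNAi alone and at 454, 513 and 538 FPKM in control. Its rise of 5.41 on the log2 scale left it below every control library. CG7906 stood at 165, 144 and 156 FPKM with both constructs, against 3.55, 4.48 and 3.36 FPKM with NAT10 RNAi alone, and its neighbour CG7924 at 24.9, 30.5 and 26.7 FPKM, against 0.596, 0.572 and 0.308 FPKM. Both lie within 4781 bases of 3L (14233469 to 14238249), and their log2 differences were 5.03 and 4.25.

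CG13606 stood at 107, 96.3 and 101 FPKM with both constructs and at 3.82, 3.17 and 3.96 FPKM with NAT10 RNAi alone. ple, which encodes tyrosine hydroxylase, the first enzyme of dopamine synthesis and cuticle tanning, stood at 144, 139 and 137 FPKM with both constructs, 10.4, 9.88 and 10.02 FPKM with NAT10 RNAi alone and 131, 131 and 131 FPKM in control. The control libraries of CG13606 stood at 129.6, 130.2 and 132 FPKM. CG42500 stood at 268, 355 and 358 FPKM with both constructs, the lowest value being replicate 1, at 19.8, 22.4 and 18.5 FPKM with NAT10 RNAi alone and at 141, 137 and 134 FPKM in control. The log2 differences were 4.46 for CG13606, 3.67 for ple and 3.94 for CG42500 (limma adjusted p = 6.3e-12, 4.07e-13 and 6.63e-10).

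The largest falls were in a group of neighbouring genes on 3R. CG14852 (3R:14565927-14566513, plus strand) stood at 4.72, 3.83 and 5.14 FPKM with both constructs, at 1760.03, 1724 and 1768 FPKM with NAT10 RNAi alone and at 33.2, 40.7 and 33.4 FPKM in control. CG14850 stood at 0.1097, 0.604 and 0.623 FPKM with both constructs and at 248, 248 and 254 FPKM with NAT10 RNAi alone. CG8087 stood at 4.13, 3.43 and 1.89 FPKM with both constructs and at 281, 259.5 and 338 FPKM with NAT10 RNAi alone. These genes lie within 5579 bases (3R:14560935-14566513), and in all 3 the libraries with NAT10 RNAi alone were far above the other 6. The log2 differences were -8.31, -7.46 and -6.18 in the order given. CG31313, which overlaps 82 exon bases of CG14852 on the other strand, fell by 1.76 on the log2 scale.

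The other large falls were in genes on several arms. CG13135 on 2L stood at 0.1001, 0 and 0.213 FPKM with both constructs, against 39.7, 35.9 and 38.5 FPKM with NAT10 RNAi alone, a log2 difference of -5.15. The noncoding CR44138 on 3R stood at 2.61, 0.839 and 1.299 FPKM with both constructs and at 82.5, 83.9 and 80.1 FPKM with NAT10 RNAi alone (-5.07). CG43402 on 2L stood at 2.46, 2.25 and 2.62 FPKM with both constructs, against 61.7, 63.2 and 60.3 FPKM with NAT10 RNAi alone (-4.19). In each of these 3 genes, too, control was nearer to the libraries with both constructs, with means of 0.259, 6.32 and 3.48 FPKM. Cyp6a23, a cytochrome P450 gene, stood at 5.74, 5.37 and 5.06 FPKM with both constructs and at 80.6, 80.02 and 80.9 FPKM with NAT10 RNAi alone (-3.67). Nplp2, which encodes a neuropeptide-like precursor, stood at 6.54, 7.85 and 8.02 FPKM with both constructs, 80.5, 87.03 and 77.1 FPKM with NAT10 RNAi alone and 2.34, 2.39 and 2.37 FPKM in control (-3.29). CG15784 stood at 36.9, 36.8 and 39.6 FPKM with both constructs and at 412, 430.3 and 412 FPKM with NAT10 RNAi alone (-3.44), with control between them at 89.1, 82.7 and 85.4 FPKM. CG7587 stood out among the falls because control was the highest group, at 174, 179.6 and 162 FPKM. It stood at 1.52, 1.505 and 1.497 FPKM with both constructs and at 29.6, 29.4 and 32.2 FPKM with NAT10 RNAi alone (-3.64).

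**Figure D2:**
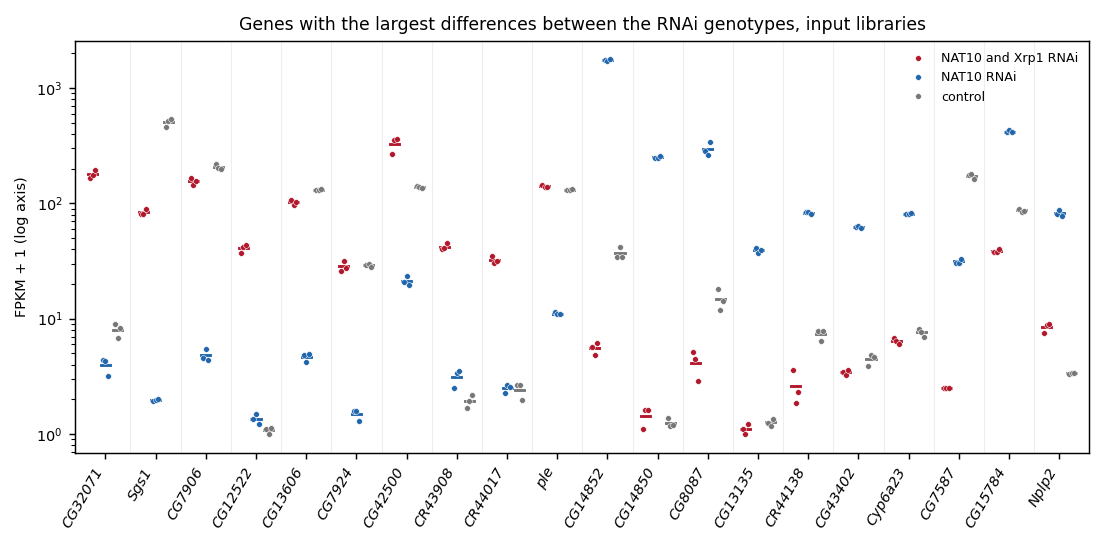
FPKM + 1 on a log axis in each of the 9 input libraries for the 10 genes with the largest rise and the 10 with the largest fall, with larvae with both constructs (red), NAT10 RNAi alone (blue) and control (grey) from left to right; bars are means of 3 libraries. The blue points of CG14852, CG14850 and CG8087 stand far above the others, while CG32071, CG12522, CR43908 and CR44017 are high with both constructs and low in the other 2 groups.

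A few genes were high with both constructs and low in both other groups. CG12522 stood at 36.1, 40.5 and 42.5 FPKM with both constructs, at 0.352, 0.496 and 0.222 FPKM with NAT10 RNAi alone and at 0.1101, 0 and 0.116 FPKM in control. CG32071, described above, stood at 7.99, 5.85 and 7.27 FPKM in control, and CG32073, chosen after its values were seen, at 9.29, 11.4 and 13.3 FPKM with both constructs, 1.32, 1.07 and 0.674 FPKM with NAT10 RNAi alone and 0.477, 0.633 and 0.804 FPKM in control. These 3 genes lie within 5312 bases of 3L (11103421 to 11108732), 5234 bases from the end of Irbp18. Of the 22 other genes tested within 50000 bases on either side of that stretch 3 were called higher and 9 lower (4 and 7 rescaled), against 15.2% and 46.1% over all genes (28.2% and 27.6% rescaled).

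CR44017, a noncoding gene on 3R, stood at 34.1, 29.3 and 30.9 FPKM with both constructs, 1.27, 1.64 and 1.57 FPKM with NAT10 RNAi alone and 1.64, 1.64 and 0.961 FPKM in control. CR43908 on X stood at 38.9, 39.6 and 44.5 FPKM with both constructs, 1.48, 2.402 and 2.53 FPKM with NAT10 RNAi alone and 0.696, 0.923 and 1.17 FPKM in control. CR43908 shares 394 bases of exon with CG15741 on the opposite strand, so the reads of the pair cannot be told apart without strand. Log2 differences between the RNAi genotypes were 4.91 for CG12522, 2.61 for CG32073, 3.70 for CR44017 and 3.76 for CR43908. Against control they were 5.24, 2.90, 3.76 and 4.45, and 4.48 for CG32071, each with a limma adjusted p under 0.05.

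Genes for stress cytokines and secreted stress peptides were lower with both constructs. Ilp8, a relaxin-like hormone gene whose product delays pupariation, stood at 0.297, 0.205 and 0 FPKM with both constructs, 5.26, 5.17 and 4.72 FPKM with NAT10 RNAi alone and 0, 0.1798 and 0.333 FPKM in control. The groups with RNAi did not overlap, and the difference was -2.38 ± 0.12 on the log2 scale (limma adjusted p = 9.88e-08). Its receptor gene Lgr3 had means of 1.27 FPKM with both constructs and 1.38 FPKM with NAT10 RNAi alone and did not pass the test (-0.07). Among the ligands of the JAK/STAT pathway, upd1 stood at 1.01, 0.908 and 1.23 FPKM with both constructs, against 4.29, 4.53 and 4.27 FPKM with NAT10 RNAi alone (-1.39). upd3 stood at 0.435, 0.293 and 0.515 FPKM with both constructs, against 2.61, 2.13 and 2.27 FPKM with NAT10 RNAi alone (-1.24). Both ligand genes were lower in all 3 libraries with both constructs.

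Further along the pathway, the feedback inhibitor gene Socs36E stood at 10.8, 10.8 and 11.2 FPKM with both constructs, against 23.3, 22.9 and 25.1 FPKM with NAT10 RNAi alone (-1.05), while the receptor gene dome fell by 0.20, a call that ended on rescaling, and the transcription factor gene Stat92E did not pass as deposited (-0.08) and was called higher after rescaling (0.11, limma adjusted p = 0.0182). chinmo, a zinc finger gene downstream of the pathway in some tissues, fell by 0.90 on the log2 scale. Of 10 tested genes of the pathway 1, the kinase gene hop (0.14), was called higher and 7 lower (3 and 5 rescaled). The shares of all genes were 15.2% and 46.1% (28.2% and 27.6% rescaled). The list had a median log2 change of -0.35 (-0.17 rescaled). None of the 10 was called higher without replicate 2 with both constructs or without replicate 2 or 3 with NAT10 RNAi alone. The Turandot gene TotA, which encodes a secreted stress peptide, stood at 277, 285 and 259 FPKM with both constructs, 644, 656 and 644 FPKM with NAT10 RNAi alone and 299.96, 310.1 and 294 FPKM in control (-1.24). TotC stood at 0.486, 0 and 0.431 FPKM with both constructs and 6.62, 7.84 and 6.48 FPKM with NAT10 RNAi alone (-2.63). Both tested Turandot genes were thus lower with both constructs, also after rescaling.

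DNA repair and cell death genes were mostly lower, where 46.1% of all genes were lower as deposited and 27.6% rescaled. Of 18 tested members 4 were called higher, 13 lower and 1 did not pass (4 and 10 rescaled), and the median was -0.52 (-0.36 rescaled). Gadd45, a stress-response gene, stood at 15.8, 17.4 and 16.2 FPKM with both constructs and at 44.96, 45.7 and 43.5 FPKM with NAT10 RNAi alone (-1.39). The double-strand break repair genes rad50 (-1.15), mre11 (-1.07) and Ku80 (-1.06) fell with it. For rad50 the libraries were at 14.7, 13.4 and 13.8 FPKM with both constructs and at 32.7, 32.1 and 31.97 FPKM with NAT10 RNAi alone. The death genes hid (-0.72) and rpr (-0.54) fell, and the p53 gene had 1.54, 1.25 and 1.22 FPKM with both constructs, against 1.83, 1.83 and 1.995 FPKM with NAT10 RNAi alone, a call that ended on rescaling (limma adjusted p = 0.0764). The members called higher were the caspase genes Dronc (0.48) and Drice (0.23), Dark (0.55), whose product activates Dronc, and Diap1 (0.16), a caspase inhibitor.

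The JNK pathway and its wound targets did not move in one direction. Of all genes 15.2% were higher and 46.1% lower (28.2% and 27.6% rescaled). Of 16 tested genes 4 were called higher and 6 lower, against 7 and 3 after rescaling, where the median also changed sign (-0.11 as deposited, 0.07 rescaled). Only 2 were called higher without replicate 2 or 3 with both constructs or without replicate 2 with NAT10 RNAi alone. Ets21C, a transcription factor gene induced by the pathway, fell by 0.84. The matrix metalloproteinase genes Mmp1 (0.52) and Mmp2 (0.46) rose, and Timp, whose product inhibits such enzymes, fell by 0.60. The ligand gene egr rose by 0.22. puc, the phosphatase gene often used as a readout of the pathway, stood at 23.3, 22.5 and 22.9 FPKM with both constructs and 25.6, 24.9 and 23.7 FPKM with NAT10 RNAi alone (-0.11, 0.08 rescaled).

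In the integrated stress and unfolded protein responses, 4 of 19 tested genes were called higher and 9 lower (6 and 7 rescaled), with a median of -0.20 (-0.02 rescaled). The shares of all genes were 15.2% and 46.1% (28.2% and 27.6% rescaled), near those of this list as deposited. Thor, which encodes the translation inhibitor 4E-BP, stood at 58.4, 74.1 and 77.2 FPKM with both constructs, 113, 119 and 119.7 FPKM with NAT10 RNAi alone and 169, 171 and 179 FPKM in control (-0.75). crc, the fly ATF4 gene, fell by 0.48. The genes of the eIF2 alpha kinases Gcn2 (-0.48) and PEK (-0.31) and the pseudokinase gene trbl (-0.63) also fell. Hsc70-3, which encodes the BiP chaperone of the endoplasmic reticulum, was higher, at 1428, 1253 and 1306 FPKM with both constructs, against 895, 904 and 916 FPKM with NAT10 RNAi alone (0.55). Among genes of serine and one-carbon metabolism Shmt rose by 0.38 and aay, a phosphoserine phosphatase gene, fell by 0.74.

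**Figure D3:**
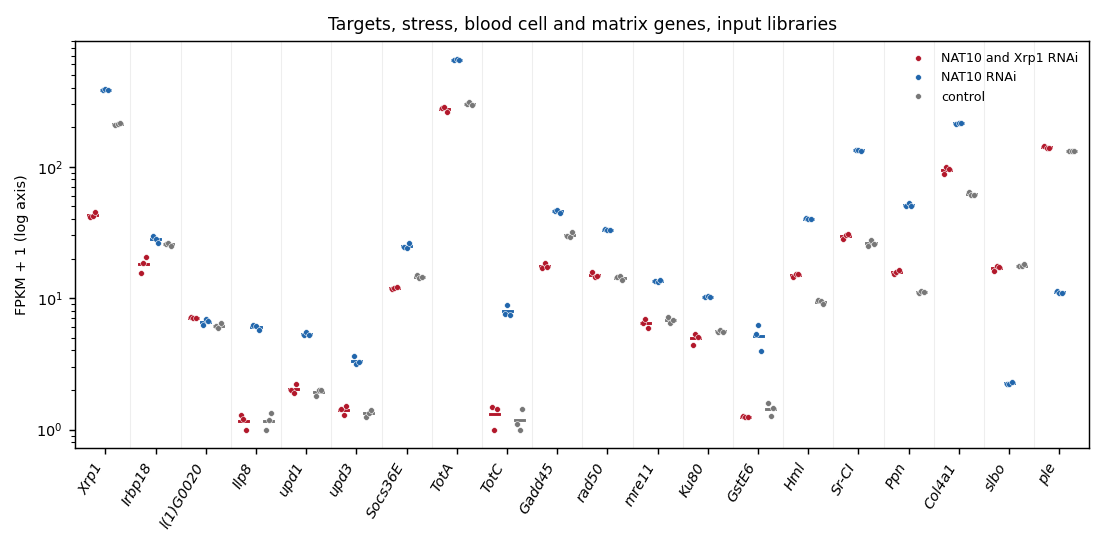
FPKM + 1 on a log axis in each of the 9 input libraries for the targeted genes and for genes of stress signalling, DNA repair, detoxification, blood cells and matrix, with both constructs (red), NAT10 RNAi alone (blue) and control (grey) from left to right; bars are means of 3 libraries. Ilp8, upd1, upd3, TotC and Col4a1 are high in the blue libraries, slbo and ple are low in them, and l(1)G0020 lies between 4.97 and 6.18 FPKM in all 9 libraries; slbo was chosen after its values were seen.

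Proteasome subunit genes were higher with both constructs throughout the complex. Of 33 tested subunit genes 32 were called higher and 0 lower, against 15.2% and 46.1% of all genes (33 and 0 rescaled), and the median log2 change was 0.63 (0.83 rescaled), against -0.16 over all genes tested. The summed level of the subunits was 6795 to 7015 FPKM with both constructs, 4222 to 4314 FPKM with NAT10 RNAi alone and 7745 to 8251 FPKM in control. In the core particle, which holds the proteolytic sites, Prosalpha5 stood at 241, 241 and 213 FPKM with both constructs, against 118, 123 and 122 FPKM with NAT10 RNAi alone (0.93), and Prosbeta5, a catalytic subunit, at 127, 139 and 124 FPKM, against 77.7, 74.8 and 78.8 FPKM (0.74). Prosbeta1, another catalytic subunit gene, was the only one of the 33 that did not pass as deposited (0.14, limma adjusted p = 0.215). It stood at 67.2, 89.6 and 88.8 FPKM with both constructs, and it passed without replicate 1 of these (limma adjusted p = 4.2e-05).

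In the regulatory particle the ATPase subunit gene Rpt2 stood at 232, 217 and 213 FPKM with both constructs, 132, 135 and 136 FPKM with NAT10 RNAi alone and 318, 294 and 289 FPKM in control (0.71). Rpn1, a scaffold subunit gene, stood at 161, 162 and 166 FPKM with both constructs and 108, 108 and 107 FPKM with NAT10 RNAi alone (0.59). The subunits differed in size of change, with Rpn7 (0.91), Rpt4 (0.90) and Rpt5 (0.89) near the top and Rpt6 (0.16) and Prosbeta7 (0.20) near the bottom. Genes that assemble the proteasome or feed it were mixed. Of 17 tested, 9 were called higher and 6 lower (9 and 2 rescaled), where the shares of all genes were 15.2% and 46.1% (28.2% and 27.6% rescaled). The polyubiquitin gene Ubi-p5E rose by 0.84, the assembly chaperone gene Pomp by 0.64 and the segregase gene TER94 by 0.33. cnc, which encodes the transcription factor that controls subunit genes in flies, stood at 85.97, 86.1 and 86.4 FPKM with both constructs and 69.2, 69.6 and 71.5 FPKM with NAT10 RNAi alone (0.29). ref(2)P, the p62 homologue that carries ubiquitinated cargo to autophagy, fell by 0.38.

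Heat-inducible and constitutive chaperone genes differed in direction. Of 7 tested small heat shock genes 6 were called higher and 0 lower, with a median of 1.46 (6 higher and 0 lower rescaled). Hsp27 stood at 2657, 2177 and 2291 FPKM with both constructs, 839, 844 and 828 FPKM with NAT10 RNAi alone and 3183, 2996 and 3049 FPKM in control (1.5). Hsp23 (1.65) and Hsp26 (1.46) also rose, while Hsp22 stood at 3.63, 4.57 and 4.74 FPKM with both constructs and 4.37, 5.33 and 4.98 FPKM with NAT10 RNAi alone and did not pass (-0.15). All 7 tested genes for Hsp70 and Hsp68 were called higher, also after rescaling, with a median of 0.81. Reads of the Hsp70 copies, which are almost the same in sequence, cannot be split between them with certainty. Their sum with Hsp68 was 514 to 589.6 FPKM with both constructs, 309 to 316 FPKM with NAT10 RNAi alone and 90.2 to 93.4 FPKM in control, so both RNAi genotypes lay above control. Hsp68, a separate gene, stood at 65.02, 68.9 and 69.3 FPKM with both constructs, 36.1, 34.1 and 35.1 FPKM with NAT10 RNAi alone and 64.9, 67.4 and 66.7 FPKM in control (0.93). Among 19 constitutive chaperone genes 3 were called higher and 15 lower (3 and 9 rescaled). The shares of all genes were 15.2% and 46.1% (28.2% and 27.6% rescaled). Hsc70-4, the main cytosolic Hsp70 cognate, and Hsp60A, a mitochondrial chaperonin gene, each fell by 0.53, and the chaperonin subunit gene CCT6 fell by 0.49.

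Genes that respond to ecdysone, the steroid hormone that times moulting and metamorphosis, were higher with both constructs. Of 25 tested 17 were called higher, 4 lower and 4 did not pass (19 and 1 rescaled), and the median was 0.59 (0.78 rescaled). Of all genes 15.2% were higher and 46.1% lower (28.2% and 27.6% rescaled). The receptor gene EcR stood at 36.6, 34.5 and 33.6 FPKM with both constructs, against 22.6, 22.5 and 23.2 FPKM with NAT10 RNAi alone (0.59), while usp, which encodes its partner, had 79.7, 76.4 and 82.2 FPKM with both constructs and 77.02, 77.1 and 78.2 FPKM with NAT10 RNAi alone and did not pass as deposited (0.04, called higher at 0.23 rescaled). Among early genes, br stood at 154, 151 and 157 FPKM with both constructs, against 71.97, 71.8 and 72.6 FPKM with NAT10 RNAi alone (1.09). Eip74EF (0.64) and Eip75B (0.46) rose by less.

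The nuclear receptor genes Hr4 and Eip78C had the largest rises among the transcription factors of the list. Hr4 stood at 18.7, 16.1 and 16.2 FPKM with both constructs, 1.68, 1.82 and 1.79 FPKM with NAT10 RNAi alone and 16.3, 16.6 and 15.8 FPKM in control (2.7). Eip78C stood at 19.4, 17.7 and 17.6 FPKM with both constructs, 2.13, 2.002 and 2.43 FPKM with NAT10 RNAi alone and 21.8, 20.7 and 20.6 FPKM in control (2.59). The imaginal disc gene ImpE2 stood at 284, 239.8 and 231 FPKM with both constructs, 31.7, 30.6 and 32.6 FPKM with NAT10 RNAi alone and 384, 362 and 350.3 FPKM in control (2.95), and ImpE1 (1.73) and the transporter gene E23 (2.12) rose as well. In Hr4 the libraries with both constructs overlapped control, and in Eip78C and ImpE2 they lay below it. ftz-f1, a factor gene that is expressed when ecdysone is low, went the other way. It stood at 9.23, 8.94 and 9.34 FPKM with both constructs and 20.7, 19.2 and 19.2 FPKM with NAT10 RNAi alone (-1.02).

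Among 10 tested genes of ecdysone synthesis and its control 6 were called higher and 2 lower (8 and 1 rescaled), with a median of 0.26. For the lists of this paragraph, shares of all genes were 15.2% higher and 46.1% lower (28.2% and 27.6% rescaled). spok and phm encode cytochrome P450 enzymes of the prothoracic gland. spok stood at 5.32, 4.35 and 4.81 FPKM with both constructs and 0.761, 0.978 and 0.814 FPKM with NAT10 RNAi alone (1.65). phm stood at 17.9, 17.2 and 16.8 FPKM with both constructs and 9.56, 9.45 and 9.07 FPKM with NAT10 RNAi alone (0.82). Cyp18a1, which breaks ecdysone down, also rose (0.90). Of 6 genes of juvenile hormone metabolism and response 0 were called higher and 4 lower (2 and 3 rescaled), and 1 was higher without replicate 1 with both constructs. The epoxide hydrolase genes Jheh1 (-0.89), Jheh2 (-0.59) and Jheh3 (-0.72), whose products degrade the hormone, fell. All 3 overlap 1 antisense gene, CR46485. The hormone's response gene Kr-h1 stood at 21.3, 23.3 and 23.01 FPKM with both constructs and 21.8, 21.6 and 20.9 FPKM with NAT10 RNAi alone, which did not pass as deposited (0.07, called higher at 0.25 rescaled).

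Apart from Sgs1, salivary glue genes were mixed. Of 11 tested glue and gland genes 4 were called higher and 3 lower (7 and 1 rescaled). Among all genes 15.2% were higher and 46.1% lower (28.2% and 27.6% rescaled). Sgs5 rose by 1.21 and Eig71Ee by 0.84. Sgs3 stood at 296, 282 and 306 FPKM with both constructs, 292, 284 and 280.4 FPKM with NAT10 RNAi alone and 5764, 6536 and 7144 FPKM in control. Sgs8 stood at 5.56, 6.75 and 7.13 FPKM with both constructs, 6.68, 6.31 and 5.71 FPKM with NAT10 RNAi alone and 197, 194 and 198 FPKM in control. Neither passed as deposited (0.05 and 0.05), both were called higher after rescaling (0.24 and 0.21), and both RNAi genotypes were far below control. Summed over the list, the level was 5199 to 5361 FPKM with both constructs, 4816 to 4955 FPKM with NAT10 RNAi alone and 36525 to 41152 FPKM in control.

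Genes of the larval fat body, which secretes storage proteins late in larval life, were 6 higher and 3 lower of 9 tested (6 and 1 rescaled). Without replicate 2 with NAT10 RNAi alone 1 was lower. Among all genes 15.2% were higher and 46.1% lower (28.2% and 27.6% rescaled). Fbp1, the storage protein receptor gene, stood at 1838, 2048 and 2051 FPKM with both constructs, 479.8, 477 and 477 FPKM with NAT10 RNAi alone and 2360.4, 2358 and 2345 FPKM in control (2.05). The storage protein gene Lsp1gamma stood at 835, 884 and 854 FPKM with both constructs, 224, 219.6 and 207 FPKM with NAT10 RNAi alone and 447, 452 and 451 FPKM in control (1.98), and Lsp2 rose by 0.22. For Lsp1gamma both constructs gave the highest values of the 9 libraries.

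**Figure D4:**
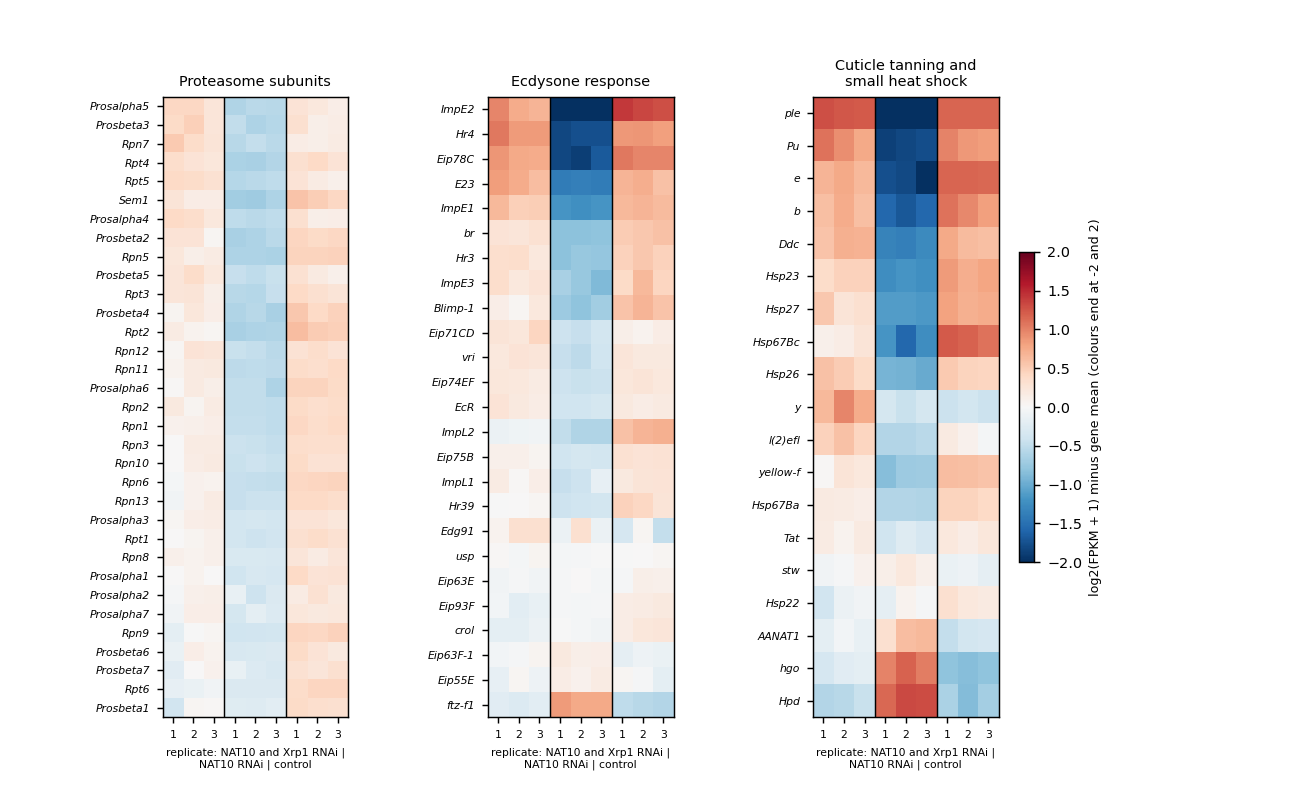
Log2(FPKM + 1) minus the gene's mean over the 9 input libraries, as colour (red high, blue low, ending at -2 and 2), for the tested proteasome, ecdysone response, and tanning and small heat shock genes in rows, and for replicates 1 to 3 with both constructs, NAT10 RNAi alone and control in columns from left to right. Nearly every proteasome row is bluest in the middle 3 columns, and ftz-f1, hgo and Hpd are red there.

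Cuticle genes changed in both directions, and the tanning pathway was mostly higher. Of 50 tested cuticle protein genes 24 were called higher and 16 lower (26 and 13 rescaled), with a median of 0.24. The shares of all genes were 15.2% and 46.1% (28.2% and 27.6% rescaled). The larval cuticle gene Lcp2 stood at 361, 581 and 561 FPKM with both constructs and 122, 119 and 137 FPKM with NAT10 RNAi alone (1.95). Cpr49Ac stood at 2157, 2178 and 2258 FPKM with both constructs and 553, 556 and 551 FPKM with NAT10 RNAi alone (1.99), and Lcp9 rose by 1.95. Cpr47Eb went the other way, at 13.7, 14.8 and 13.8 FPKM with both constructs and 101, 106 and 100.4 FPKM with NAT10 RNAi alone (-2.78), and Cpr49Af (-1.84) and Cpr65Ay (-1.76) fell. Neighbours in one gene cluster, such as Cpr49Ac and Cpr49Af, thus moved in opposite directions.

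Of 12 tested genes of tyrosine use 8 were called higher and 3 lower, with the same counts after rescaling and a median of 1.05. Over all genes 15.2% were higher and 46.1% lower (28.2% and 27.6% rescaled). Besides ple, Pu, which encodes the enzyme that starts synthesis of its cofactor, stood at 218, 195 and 174 FPKM with both constructs, 27.3, 28.1 and 29.3 FPKM with NAT10 RNAi alone and 203, 186 and 184 FPKM in control (2.74). Ddc, the dopa decarboxylase gene, stood at 40.1, 44.3 and 43.8 FPKM with both constructs, 9.87, 9.64 and 10.4 FPKM with NAT10 RNAi alone and 45.7, 41.8 and 40.6 FPKM in control (1.99). For ple, Pu and Ddc the libraries with both constructs and control lay close together and those with NAT10 RNAi alone far below. Among the members that fell, Hpd and hgo encode enzymes that break tyrosine down (-1.79 and -1.32), and AANAT1, which encodes an enzyme that acetylates dopamine, fell by 0.66.

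Genes of sugar metabolism were mostly lower, where 46.1% of all genes were lower as deposited and 27.6% rescaled. Of 18 tested 1 was called higher and 16 lower (2 and 11 rescaled), with a median of -0.47 (-0.29 rescaled). Tps1, the trehalose synthesis gene, stood at 5.62, 7.23 and 7.09 FPKM with both constructs and 14.5, 15.2 and 14.1 FPKM with NAT10 RNAi alone (-1.03). PyK, the pyruvate kinase gene, stood at 56.2, 64.2 and 65.5 FPKM with both constructs and 109, 104 and 107 FPKM with NAT10 RNAi alone (-0.77). AGBE, a glycogen branching enzyme gene, fell by 1.03, and Gapdh1 alone in the list rose as deposited (0.58). Ldh, lactate dehydrogenase, had 73.4, 72.9 and 73.02 FPKM with both constructs, 84.4, 82.03 and 80.2 FPKM with NAT10 RNAi alone and 23.1, 23.7 and 24.5 FPKM in control, and its call ended on rescaling (-0.17 as deposited, 0.02 rescaled).

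For lipid synthesis and storage 2 of 14 tested genes were called higher and 7 lower (6 and 5 rescaled). Only 1 was higher without replicate 2 or 3 with both constructs or without any 1 of the libraries with NAT10 RNAi alone. For the lists of this paragraph, shares of all genes were 15.2% higher and 46.1% lower (28.2% and 27.6% rescaled). Those of the lipid list were near these as deposited. The enzymes that make fatty acids were among the falls, with ACC, acetyl-CoA carboxylase, at -0.83, FASN1, a fatty acid synthase, at -0.46 and Desat1, a desaturase, at -0.88 on the log2 scale. ATPCL, which supplies cytosolic acetyl-CoA, rose by 0.72. The lipase gene bmm stood at 12.02, 13.7 and 13.8 FPKM with both constructs and 12.1, 12.2 and 11.8 FPKM with NAT10 RNAi alone and did not pass as deposited (0.12, called higher at 0.30 rescaled). In the insulin, TOR and starvation list 4 of 19 were called higher and 7 lower, against 8 and 2 rescaled, and the median changed sign with rescaling (-0.06 and 0.09). tobi, a target of the pathway in the fat body, fell by 1.69, and Ilp6, an insulin-like peptide gene, rose by 0.39. InR, the receptor gene, fell by 0.29, a call that ended on rescaling, and foxo, the gene of the forkhead factor that the pathway restrains, did not pass as deposited (0.03, called higher at 0.21 rescaled). Of 19 autophagy genes 8 were called higher and 5 lower (12 and 2 rescaled). The number called lower was 2 without replicate 1 with both constructs and 3 without replicate 3 with both constructs or without any 1 of the libraries with NAT10 RNAi alone. Atg7, an E1-like enzyme gene, rose by 1.03, Atg1, the kinase gene that starts the process, by 0.48 and Atg8a by 0.33.

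Among detoxification genes more were lower than higher, where 46.1% of all genes were lower as deposited and 27.6% rescaled. Of 58 tested cytochrome P450 genes 3 were called higher and 38 lower (10 and 31 rescaled), with a median of -0.40 (-0.25 rescaled). After Cyp6a23, Cyp4e3 stood at 12.4, 13.1 and 13.6 FPKM with both constructs, 58.3, 58.1 and 57.04 FPKM with NAT10 RNAi alone and 6.81, 6.51 and 6.21 FPKM in control (-2.07), and Cyp309a1 fell by 2.08. Of 25 glutathione S-transferase genes 3 were called higher and 17 lower (5 and 11 rescaled). GstE6 stood at 0.257, 0.236 and 0.244 FPKM with both constructs and 4.36, 5.26 and 2.95 FPKM with NAT10 RNAi alone (-2.03), and GstD9 (-1.20) and GstD10 (-1.16) fell. GstD1, a gene induced by oxidative stress, stood at 42.8, 49.99 and 50.9 FPKM with both constructs and 55.4, 59.6 and 61.3 FPKM with NAT10 RNAi alone, and its call ended on rescaling (-0.29 and -0.10). Of 19 tested UDP-glycosyl transferase genes 3 were called higher and 12 lower (4 and 9 rescaled), led by Ugt37A2 (-2.0) and Ugt37D1 (-1.87). Ugt36D1 (1.20) and Ugt301D1 (1.01) rose.

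How many genes of the translation machinery were lower depended on the scale, and shares over all genes tested were 46.1% lower as deposited and 27.6% rescaled. Of 90 tested cytosolic ribosomal protein genes 0 were called higher and 78 lower, and after rescaling 7 were higher and 44 lower. Without replicate 1 with both constructs 1 was called higher as deposited. Their median was -0.33 as deposited and -0.14 rescaled, and their summed level was 31416 to 34609.9 FPKM with both constructs, 40469 to 41744 FPKM with NAT10 RNAi alone and 33352 to 34187 FPKM in control. RpS12, a subunit gene linked to Xrp1 in flies with reduced ribosomal protein dose, stood at 88.5, 116 and 116 FPKM with both constructs and 162, 176 and 167 FPKM with NAT10 RNAi alone (-0.66). RpL24-like, which encodes an assembly factor rather than a subunit, had the largest fall (-1.28). Of 50 translation factor genes 4 were called higher and 27 lower, which became 16 and 16 on rescaling. eIF4A, an RNA helicase gene of initiation, stood at 519.7, 535 and 550.3 FPKM with both constructs and 1060.2, 1058 and 1052 FPKM with NAT10 RNAi alone (-0.98).

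Of 20 tRNA synthetase genes 0 were called higher and 14 lower (1 and 8 rescaled). For the lists of this paragraph, shares of all genes were 15.2% higher and 46.1% lower (28.2% and 27.6% rescaled). Of 30 ribosome biogenesis genes 3 were called higher and 18 lower (8 and 7 rescaled). Non1, a nucleolar GTPase gene, stood at 192, 218 and 209 FPKM with both constructs, 483, 499 and 490.4 FPKM with NAT10 RNAi alone and 181, 175 and 179 FPKM in control (-1.25). Myc, the growth regulator gene, fell by 0.60. Mitochondrial ribosomal protein genes were called higher in 0 and lower in 27 of 70 cases (13 and 10 rescaled). On both scales they were thus called lower less often than all genes. As deposited 2 were called higher without replicate 3 with both constructs, and 1 without replicate 2 or 3 with NAT10 RNAi alone or control replicate 2. Nuclear genes of oxidative phosphorylation were called higher in 3 and lower in 50 of 84 cases (9 and 33 rescaled), with SdhA, a subunit of succinate dehydrogenase, at -0.65. The 3 tested genes of NAT10 and its partners held 1 fall, of CG1785 (-0.32), and after rescaling also the rise of l(1)G0020 given above.

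Proliferation and patterning genes moved little and depended on the scale. So did the shares of all genes, 15.2% higher and 46.1% lower (28.2% and 27.6% rescaled). Of 37 replication and cell cycle genes 4 were called higher and 10 lower, which turned to 12 higher and 3 lower on rescaling. Cdk1, the mitotic kinase gene, rose by 0.72 and CycE, the cyclin gene of S phase entry, by 0.44, while RpA-70, a single-strand DNA binding protein gene, fell by 0.83. Of 27 imaginal disc genes 9 were called higher and 4 lower (18 and 1 rescaled). The wing selector gene vg stood at 4.43, 3.69 and 4.03 FPKM with both constructs, 2.69, 2.95 and 3.28 FPKM with NAT10 RNAi alone and 5.62, 4.85 and 6.22 FPKM in control (0.35). The homeotic gene Ubx rose by 0.57, and wg, the Wingless ligand gene, did not pass as deposited (0.10, called higher at 0.23 rescaled).

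Blood cell and basement membrane genes were mostly lower with both constructs, where 46.1% of all genes were lower as deposited and 27.6% rescaled. Of 11 tested hemocyte genes 0 were called higher and 10 lower (0 and 8 rescaled), with a median of -0.75 (-0.57 rescaled). Their summed level was 198 to 221 FPKM with both constructs, 407 to 419 FPKM with NAT10 RNAi alone and 176 to 181 FPKM in control. Hml, the hemolectin gene that marks plasmatocytes, stood at 13.6, 14.2 and 14.3 FPKM with both constructs, 39.5, 38.8 and 38.7 FPKM with NAT10 RNAi alone and 8.63, 8.44 and 8.1001 FPKM in control (-1.41). The scavenger receptor gene Sr-CI stood at 27.4, 29.2 and 29.9 FPKM with both constructs and 133, 134 and 130.4 FPKM with NAT10 RNAi alone (-2.16), and NimC1, a phagocytosis receptor gene, fell by 0.95. The GATA factor gene srp, which is also used in fat body, fell by 0.47.

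Of 12 basement membrane genes, which hemocytes and fat body both express, 1 was called higher and 8 lower (3 and 7 rescaled). Among all genes 15.2% were higher and 46.1% lower (28.2% and 27.6% rescaled). The collagen IV genes Col4a1 and vkg moved together. Col4a1 stood at 87.7, 98.3 and 95.4 FPKM with both constructs, 209, 215 and 214 FPKM with NAT10 RNAi alone and 63.4, 59.95 and 59.6 FPKM in control (-1.17), and vkg fell by 1.06. Ppn, the papilin gene, stood at 14.3, 14.9 and 15.4 FPKM with both constructs and 49.6, 51.5 and 49.6 FPKM with NAT10 RNAi alone (-1.69), and SPARC, a collagen-binding protein gene, fell by 1.02. The only rise, of the perlecan gene trol, was 0.26. The part of a change in cell number in these falls was not tested.

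Other tissue lists were mixed, where 15.2% of all genes were higher and 46.1% lower (28.2% and 27.6% rescaled). Of 22 sarcomere genes 5 were called higher and 15 lower (7 and 12 rescaled), and their summed level was 10376 to 10669 FPKM with both constructs, 13112 to 13318 FPKM with NAT10 RNAi alone and 6385 to 6616 FPKM in control. The myosin heavy chain gene Mhc differed by -0.23 as deposited and by -0.04 rescaled, where its call ended, while Act87E, a muscle actin gene, fell by 0.65 and Zasp66, a Z-disc gene, rose by 0.95. Of 41 digestive enzyme genes 12 were called higher and 22 lower (16 and 17 rescaled). The Jonah proteases went both ways within one cluster, with Jon25Biii at 42.1, 51.1 and 56.1 FPKM with both constructs and 233, 245 and 229 FPKM with NAT10 RNAi alone (-2.23), and Jon25Bi at 108, 146 and 145 FPKM with both constructs and 45.9, 46.1 and 42.1 FPKM with NAT10 RNAi alone (1.54).

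Of 9 tested genes of the Malpighian tubule, the insect kidney, 0 were called higher and 5 lower (0 and 3 rescaled). For the lists of this paragraph, shares of all genes were 15.2% higher and 46.1% lower (28.2% and 27.6% rescaled). Uro, the urate oxidase gene, stood at 6.68, 8.48 and 9.31 FPKM with both constructs, 33.7, 33.2 and 30.9 FPKM with NAT10 RNAi alone and 2.69, 2.68 and 2.93 FPKM in control (-1.89). Tracheal genes were 3 higher and 4 lower of 11 (4 and 2 rescaled, with a median that changed sign). Gasp, a chitin-binding protein of the tracheal lumen, fell by 0.54. Neuronal genes were 0 higher and 9 lower of 20 (5 and 7 rescaled, again with a change of sign in the median). As deposited their share called lower was near that of all genes. brp, a gene of the presynaptic active zone, stood at 11.6, 11.4 and 11.7 FPKM with both constructs, 53.2, 51.98 and 54.5 FPKM with NAT10 RNAi alone and 37.8, 37.1 and 36.4 FPKM in control (-2.11). elav, the pan-neuronal RNA-binding protein gene, differed by 0.02 and passed only after rescaling (0.20).

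The level of testis genes follows the share and age of males. Where 15.2% of all genes were higher and 46.1% lower (28.2% and 27.6% rescaled), 1 of 16 testis genes was higher and 11 lower (1 and 8 rescaled). None was called higher without replicate 1 or 3 with both constructs, without any 1 of the libraries with NAT10 RNAi alone or without control replicate 1 or 3. Their summed level was 387 to 390.5 FPKM with both constructs, 521 to 530.4 FPKM with NAT10 RNAi alone and 346 to 357 FPKM in control. The spermatid gene Mst87F stood at 10.96, 16.8 and 16.9 FPKM with both constructs and 26.8, 27.4 and 26.1 FPKM with NAT10 RNAi alone (-0.83). The male dosage compensation RNA roX1 stood at 50.2, 51.8 and 52.9 FPKM with both constructs, 90.6, 93.3 and 91.5 FPKM with NAT10 RNAi alone and 64.9, 62.6 and 61.7 FPKM in control (-0.82), while roX2 did not pass (0.15). The part of a different share of males in these values was not tested. Of 4 tested germline and gonad genes 1, bam (0.90), was called higher and 0 lower, with the same counts after rescaling. Of 5 genes of the small interfering RNA pathway 0 were called higher and 3 lower (1 and 2 rescaled), with AGO2, the slicer gene, at -0.46 and Dcr-2 at -0.17, where the call ended on rescaling.

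Immune genes were mixed. Of 15 tested 7 were called higher and 4 lower (8 and 3 rescaled). Over all genes 15.2% were higher and 46.1% lower (28.2% and 27.6% rescaled), so immune genes were called higher more often than genes in general. The secreted amidase genes, whose products degrade peptidoglycan, had the largest rises. PGRP-SC2 stood at 77.9, 93.3 and 87.9 FPKM with both constructs, 9.65, 8.22 and 8.61 FPKM with NAT10 RNAi alone and 75.3, 77.7 and 77.6 FPKM in control (3.15). PGRP-SC1a stood at 6.13, 7.74 and 8.63 FPKM with both constructs, 0.199, 0.27997 and 0.0941 FPKM with NAT10 RNAi alone and 0.187, 0.265 and 0 FPKM in control (2.83). PGRP-SC2 was thus low with NAT10 RNAi alone, whereas PGRP-SC1a was high with both constructs compared with both other groups. It has a near-identical neighbour, PGRP-SC1b, which makes its share of reads uncertain. The antimicrobial peptide gene AttD rose by 1.81 and CecC fell by 0.84.

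**Figure D5:**
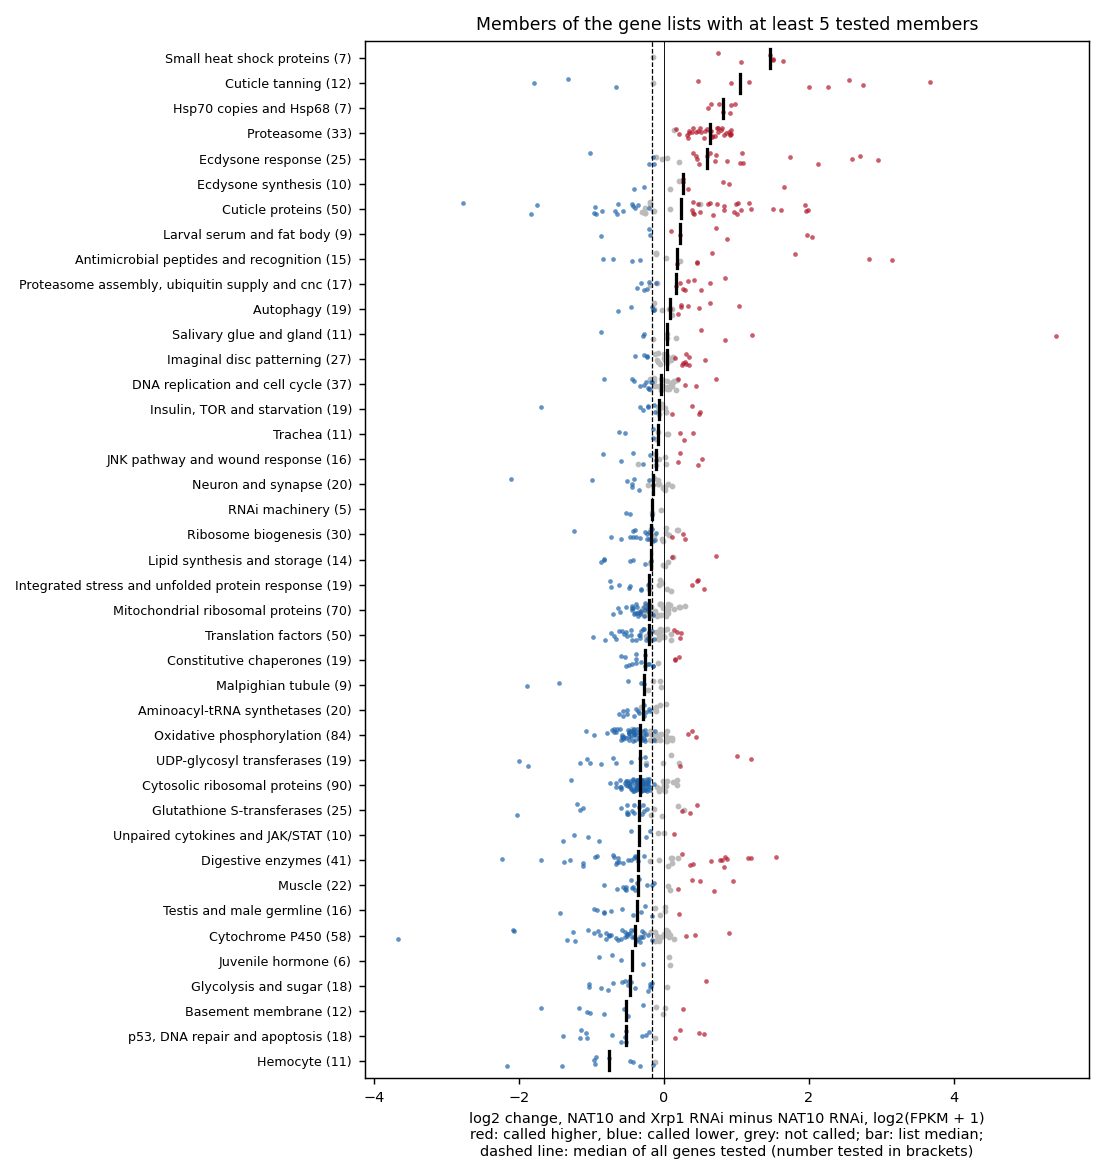
Log2 change between larvae with both constructs and larvae with NAT10 RNAi alone for each tested member of the 41 gene lists with at least 5 tested members, on FPKM as deposited; red points were called higher, blue points lower and grey points not called, and bars are list medians. The small heat shock, tanning, Hsp70, proteasome and ecdysone response lists have the highest medians and the hemocyte list the lowest; the dashed line marks the median of all genes tested, -0.16.

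Beyond the gene lists, classes of genes were compared with all genes tested. Of 13 genes annotated as ribosomal RNA 8 were called higher and 1 lower (9 and 0 rescaled), with a median of 0.29. This class was set by annotated type and the next by location, so they may share members. Of 17 genes of the mitochondrial genome 9 were called higher and 4 lower (12 and 1 rescaled). Over all genes tested, 15.2% were higher and 46.1% lower (28.2% and 27.6% rescaled). Since the RNA was selected for poly(A) tails, levels of these transcripts also carry any difference in that selection, which was not tested. Of 781 noncoding genes 106 were called higher (13.6%) and 320 lower (40.97%), shares near those over all genes. After rescaling 21.5% were higher and 27.8% lower. Genes on X had a median of -0.16, as did those on the autosomal arms, and of 13 tested genes on Y none was called higher and 8 lower (1 and 6 rescaled).

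The authors' deposited tables of differential ac4C peaks compare each RNAi genotype with control, and a table that sets the RNAi genotypes against each other was not used here. Of 23 genes, namely the 20 with the largest differences, both targets and Irbp18, none has a peak among the 1336 of the authors' deposited table for NAT10 RNAi alone. The authors' deposited table for both constructs lists 1316 peaks, 3 of them in these genes. Peaks are listed in 1150 genes for NAT10 RNAi alone and in 1102 genes for both constructs, where the input table holds 12301 genes. Beside such shares the counts of 0 and 3 among 23 genes are no result about these genes. The peak in l(1)G0020 has a log2 change of 2.78 with an FDR of 0.239, the peak in CG8087 one of -1.08 with an FDR of 0.0161 and the peak in CR44138 one of -1.02 with an FDR of 0.353 in the authors' deposited table. Reads behind each of these peaks over all libraries of that table numbered 201, 1220 and 499.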

How the data were processed

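Input and immunoprecipitated poly(A)-selected RNA of whole larvae was sequenced in 18 libraries, per the labels' protocols. The deposited input table holds FPKM, which the authors made per gene from reads counted against BDGP6. Tools in the submitters' processing notes include STAR 2.7.6a, featureCounts of Subread 1.5.1 and fastp 0.23.1. Neither the strand setting of the counting nor the use of molecular identifiers is given in the sources used here. Whole reads were recovered from the FPKM steps, where every value lay within 0.1 of a whole read, and their sums gave the depth per library. From the peak tables the read counts, log2 fold changes, p-values and false discovery rates per peak were used as deposited by the authors. A further 12 per-library columns were not used.

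Genes with at least 1 FPKM in 3 of the 9 input libraries were tested on log2(FPKM + 1) in R 4.3.3, in 1 limma fit (version 3.58.1, robust, with a mean-variance trend) over all 9 input libraries, with Benjamini-Hochberg adjustment over all genes tested and a threshold of 0.05. A pseudocount of 1 makes the change of low genes look smaller. In the rescaled fit each library was divided by its median ratio to the geometric mean over 12275 genes above 0 in all libraries. The recovered reads were also tested with edgeR 4.0.16 and DESeq2 1.42.0 as alternatives, and the fits were tested on simulated data. Other alternatives were pseudocounts, filters, the replicate number as a block, fits without control and leaving out each library. Whether same-numbered libraries deviated together was checked from their deviations from the group means.

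Named genes were both targets, the 10 largest differences in each direction among called genes with no overlap between libraries and at least 5 FPKM on average in the higher genotype, and of each list the largest called and the key members. Genes named beyond this rule, mostly members that moved against their list, were chosen after their values were seen. The comparison, its members and the gene lists were chosen with earlier results of these data known. Gene symbols were matched to the annotation by ID for 12242 genes, and coordinates are those of the deposited table. No sequences are shown, since none were used.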

Additional observations from a re-analysis of the deposited data

How the results depend on the processing

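The number of genes differing between the RNAi genotypes was 7094 as reported and 6316 to 7012 when any 1 library was left out, and both targets kept their direction under every alternative. The split by direction depended on the scale, and the cause was not tested. The number called higher was 1761 as reported, 3256 after rescaling, 3273 with edgeR and 3045 with DESeq2, and the number called lower was 5333, 3185, 3491 and 2836 in the same order. Without replicate 1 with both constructs, an alternative chosen after seeing the data, edgeR called 3246 higher and 3401 lower. At least 2-fold differences numbered 512 as reported, 785 with edgeR, 786 with DESeq2, 830 with a pseudocount of 0.1 and 234 with a pseudocount of 5, which by construction shrinks the change of low genes. Leaving out 1 library gave 1561 to 1800 higher, 4750 to 5277 lower and 496 to 552 at least 2-fold, and after rescaling 5768 to 6415 in all, 2936 to 3237 higher and 2803 to 3183 lower. Xrp1 stayed between -3.21 and -3.16. l(1)G0020 stayed between 0.05 and 0.13 (limma adjusted p = 0.144 to 0.531), but passed at 0.26 after rescaling, 0.28 with edgeR and 0.29 with DESeq2.

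Same-numbered libraries did not deviate together (r between -0.068 and 0.08 across genes, which are not independent replicates). Not every library correlated best with its own number. Whether same-numbered samples shared a culture, day or preparation cannot be told from these values. With the number as a replicate block 7016 genes differed, and 6360 after rescaling.

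Of the genes named, 7 changed sign under at least 1 alternative. After rescaling, with edgeR and with DESeq2 the log2 difference was 0.025, 0.0057 and 0.022 for Ldh, 0.0796, 0.0628 and 0.0790 for puc, 0.109, 0.0940 and 0.110 for Stat92E and 0.0398, 0.0456 and 0.0634 for Lgr3. Hsp22 was at 0.0054 after rescaling and at 0.0080 with DESeq2. Leaving out 1 library moved Sgs8 between -0.018 and 0.137 and foxo between -0.030 and 0.058. Depth limits genes near 1 FPKM, for which single reads move the value.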
